A study of Danio rerio with 9 samples.

Results

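Collagen transcripts were measured by poly(A) RNA sequencing in whole zebrafish embryos at 24 h post fertilisation. A gene was counted as a collagen gene when its symbol in the deposited tables is col, a number, a and a number with an optional last letter, and when its counts over the 9 libraries summed to at least 10. Of 40 genes with such a symbol, col10a1 had no count in any library, and the other 39 were kept out of 32312 genes in all. The symbol col5a3a stands on 2 genes with different identifiers, both on chromosome 3, so the 39 genes carry 38 different symbols. A reference table of gene names gives col9a1 as col9a1b, col18a1 as col18a1a and col28a1 as col28a1a. By collagen number, 13 genes are fibrillar (types I, II, V, XI and XXVII), 8 belong to basement membranes (types IV, XV and XVIII), 4 to type VI and 14 to other types. The last class holds 7 fibril-associated collagens, 3 network-forming ones, 2 transmembrane ones, 1 anchoring fibril collagen and col28a1.

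Collagens are the main structural proteins of the extracellular matrix. Their chains wind into a helix in the endoplasmic reticulum after prolines and lysines have been hydroxylated, leave the cell as procollagens, and are trimmed and cross-linked outside it. Fibrillar collagens form the banded fibrils of skin, cartilage and the notochord sheath, type IV collagen forms the sheet of basement membranes, type VI forms beaded filaments around cells, and fibril-associated collagens coat the fibrils. In the day-old zebrafish embryo type II and type IX collagens are known from the notochord and its sheath, and type I collagen from the skin and the fin fold.

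All embryos were of the TU strain. The 3 exposed groups had received methanolic coal dust extract at 100 mg/L in DMSO when 4 h old and were sorted by malformation before collection at 24 h, with RNA from 50 embryos per group. P1 has deformed tails (n = 3), P2 deformed yolks (n = 2), and P3 holds small embryos with extruded yolks (n = 3). The control is 1 pooled library of embryos of normal appearance (n = 1), and the labels do not say whether these were given the solvent. All exposed groups thus share 1 dose and differ by the malformation they were sorted for. The labels do not say whether libraries of 1 phenotype came from separate sets of embryos, so the p-values reflect the spread among libraries, which may be technical. The single control library has no replicate of its own, and its spread was taken from the other groups.

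Libraries held up to 20810487 counts, in P3 replicate 2, and 12008832 in the control, over 23315 to 24024 genes with a count. Within each phenotype every pair of libraries differed by more than sampling noise, with a chi-square per degree of freedom of 1.63 to 3.4 except for the pairs that include P3 replicate 0, where it reached 6.75. All 11 lists of cell type markers were found in these whole embryos, and no matched marker was without counts. Counts of called markers, here and below, stand beside the shares over all tested genes in the edgeR test described below. These were 9.19%, 15.6% and 12.2% lower and 7.08%, 14.2% and 10.4% higher in P1, P2 and P3. The summed marker level for skeletal muscle was 12230 to 13247 CPM (counts scaled to TMM library size) in P1, 8859 to 8860 in P2, 8171 to 11508 in P3 and 17936 in the control, with 9 of 11 markers lower in each phenotype. For the epidermis it was 17064 to 17878 CPM in P1, 16404 to 16860 in P2, 17308 to 18395 in P3 and 24149 in the control, with 7, 6 and 6 of 10 markers lower in P1, P2 and P3 and 1 higher in P3. For the fin fold it was 125 to 134 CPM in P1, 114 to 117 in P2, 113 to 123 in P3 and 242 in the control. Of its 9 markers 3 were lower and 1 higher in each phenotype, with median log2 fold changes of 0.11, -0.46 and -0.44. For the notochord it was 276 to 295 CPM in P1, 308 to 326 in P2, 290 to 299 in P3 and 256 in the control, with none of 6 markers lower and 1, 1 and 2 higher in P1, P2 and P3. The part of these tissues in the collagen results was not tested, and in RNA from whole embryos fewer cells of a type and less RNA per cell cannot be told apart.

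The most abundant collagen transcripts were those of types IX, II and I. Levels of different genes were compared as the authors' deposited FPKM, the counts per kilobase of exon scaled to the library's total. The fibril-associated gene col9a1 was the highest, with 228, 239 and 241 FPKM in P1, 176 and 183 FPKM in P2, 238, 232 and 242 FPKM in P3 and 243 FPKM in the control. The type II gene col2a1a, the main fibrillar collagen of cartilage and notochord, had 231, 204 and 210 FPKM in P1, 177 and 180 FPKM in P2, 193, 218 and 224 FPKM in P3 and 228 FPKM in the control. Its libraries overlapped those of col9a1 in P1 and P2 and lay below them in P3. The type I gene col1a1a stood below col2a1a in all 8 phenotype libraries, but above it in the control, at 232 FPKM.

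At the low end, 7 to 9 collagen genes were under 1 FPKM in a phenotype library, against 4 in the control. The genes that stood under 1 FPKM in every phenotype library but above it in the control were col6a3, col17a1a and col28a1. Between 9 and 10 collagen genes reached 50 FPKM in a phenotype library, against 11 in the control. The lowest member was col8a1b, a network-forming collagen with 0 to 4 counts in a phenotype library and 3 in the control, which did not pass the filter on low counts. The other 38 were tested.

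**Figure D1:**
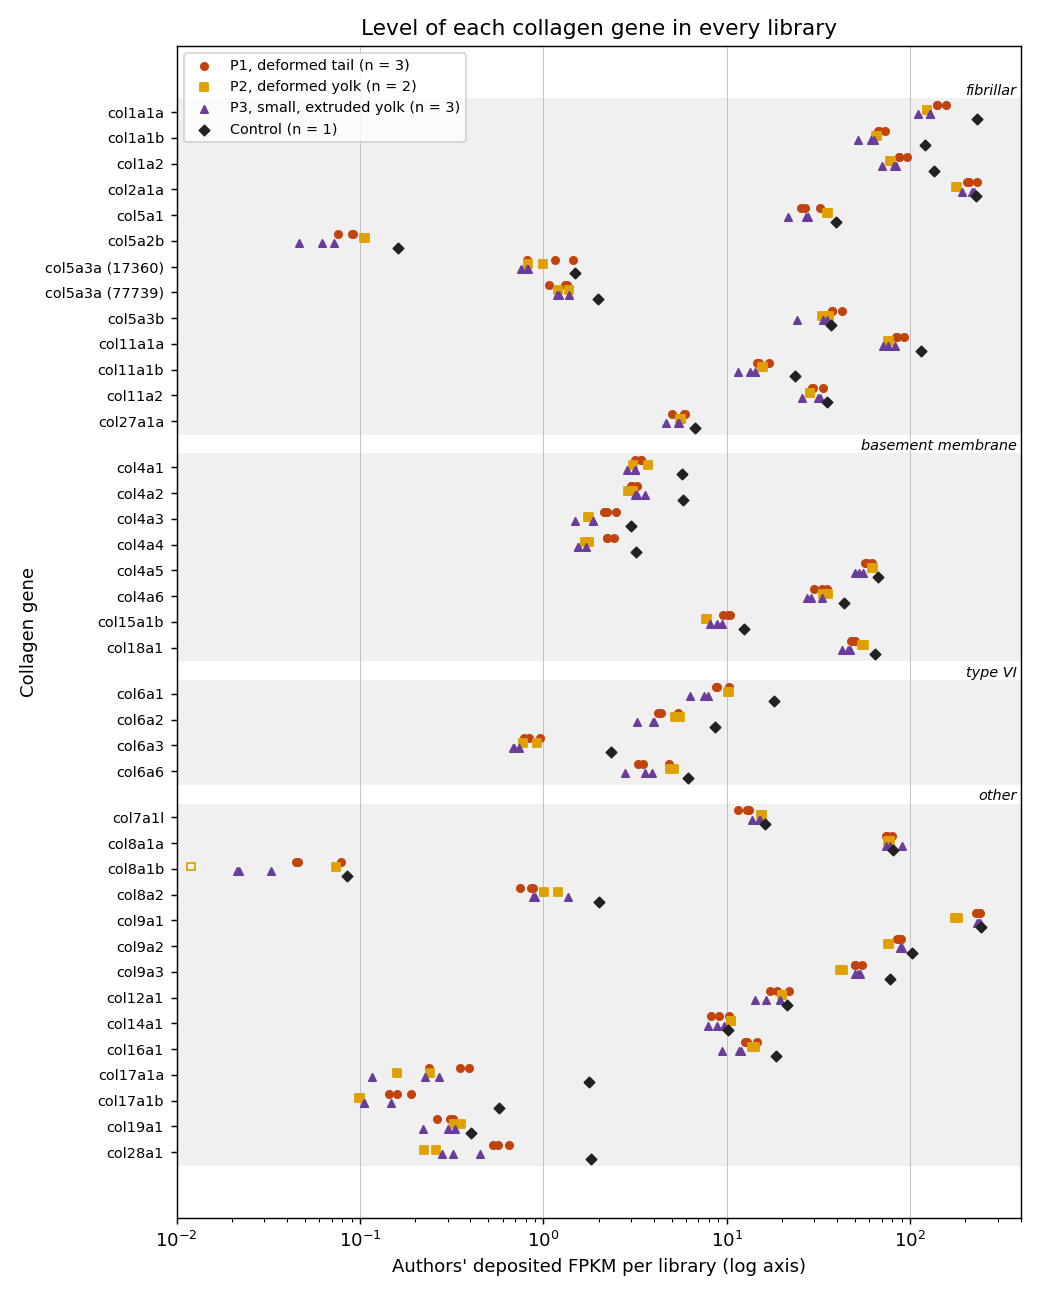
FPKM of all 39 collagen genes in every library on a log axis, with 1 point per library (P1 circles, P2 squares, P3 triangles, control diamonds) and shading by class; the open square at the left edge is the 0 of col8a1b in P2 replicate 0. The control diamond lies to the right of all 8 phenotype points in 33 of the 38 tested genes, and col9a1, col2a1a and col1a1a lead. The share over all tested genes was not counted in FPKM. In CPM it was 24.8%, beside 32 of the 38 collagen genes. Both counts include col5a2b, which passed the filter on low counts through the control alone.

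Collagen genes together took less of the counts in every phenotype library than in the control. Their share was 0.7654%, 0.7094% and 0.6993% in P1, 0.6624% and 0.6671% in P2, 0.6224%, 0.6962% and 0.6874% in P3, and 0.9412% in the control. Fibrillar collagens made up the larger part of it, at 0.4278% to 0.4784% in P1, 0.3954% and 0.3988% in P2, 0.3591% to 0.4209% in P3 and 0.5974% in the control. Basement membrane collagens took 0.1047% to 0.1156% in P1, 0.1154% and 0.1169% in P2, 0.09521% to 0.1058% in P3 and 0.1402% in the control. Type VI collagens were a small part, at 0.00901% to 0.0118% in P1, 0.01174% and 0.01182% in P2, 0.007134% to 0.00904% in P3 and 0.01896% in the control. Other collagens took 0.1571% to 0.1623% in P1, 0.1383% and 0.1412% in P2, 0.1605% to 0.161% in P3 and 0.1846% in the control. No phenotype library reached the control in any of the 4 classes.

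Gene by gene, most of the 38 tested collagen transcripts were lower in each of the 3 phenotypes, and none of the 38 was higher. With edgeR's quasi-likelihood test and Benjamini-Hochberg adjustment over 19835 genes at 0.05, 26 of 38 were lower in P1 than in the control (68.4%), where 9.19% of all tested genes were lower. In P2 26 of 38 were lower (68.4%), where 15.6% of all genes were lower, and in P3 27 of 38 were lower (71.1%), where 12.2% of all genes were lower. Higher transcripts made up 7.08%, 14.2% and 10.4% of all tested genes in P1, P2 and P3, and called genes in either direction 16.3%, 29.8% and 22.6%. The median log2 fold change over the collagen genes was -0.48 in P1, -0.61 in P2 and -0.71 in P3, beside 0.00, 0.00 and 0.01 over all tested genes. Every library lay below the control in 34 collagen genes in P1, 37 in P2 and 36 in P3, while this held for 37.2%, 43.6% and 35.9% of all tested genes. In CPM all 8 phenotype libraries lay below it in 32 of 38, and in 24.8% of all tested genes. The filter on low counts keeps a gene that reaches its cut in 1 library. Among the 32, and likewise among the 34, 37 and 36, col5a2b reached it in the control alone (0.834 CPM). Its place below the control is therefore no separate result. The log2 fold changes of col5a2b also enter the medians over the collagen genes and over the fibrillar genes. In the authors' deposited table, 24 of the 39 genes were lower in P1, 28 in P2 and 26 in P3 at an adjusted p under 0.05. None was higher there, where 4.21%, 7.53% and 4.62% of its 32312 genes were lower. Those 32312 genes include 5723 with no count, while the collagen genes had at least 10 counts, so these shares are not like for like. The 3 comparisons share the 1 control library, so a low or high value there moves all of them alike.

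Lower transcripts in all 3 phenotypes were called for 22 genes. How many of all tested genes were lower in all 3 was not counted. Since the comparisons share the 1 control library, the share in each comparison cannot stand in for it. Another 3 were lower in a pair of phenotypes (col5a1 and col6a6 in P1 and P3, col9a2 in P1 and P2) and 7 in 1 phenotype. The 6 called in none were col5a2b, col5a3b, col8a1a, col12a1, col14a1 and col19a1. Of these, col8a1a was among the abundant collagens, with 74.7, 79.2 and 74.3 FPKM in P1, 76.1 and 77.6 FPKM in P2, 89.9, 77.8 and 74.3 FPKM in P3 and 80.2 FPKM in the control, so its groups overlapped. In the fits that leave out each phenotype library in turn, 23 of the 26 calls in P1, 20 of the 26 in P2 and 26 of the 27 in P3 were made every time. Without P3 replicate 0, the library that stands apart, 27 collagen genes were again lower in P3.

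**Figure D2:**
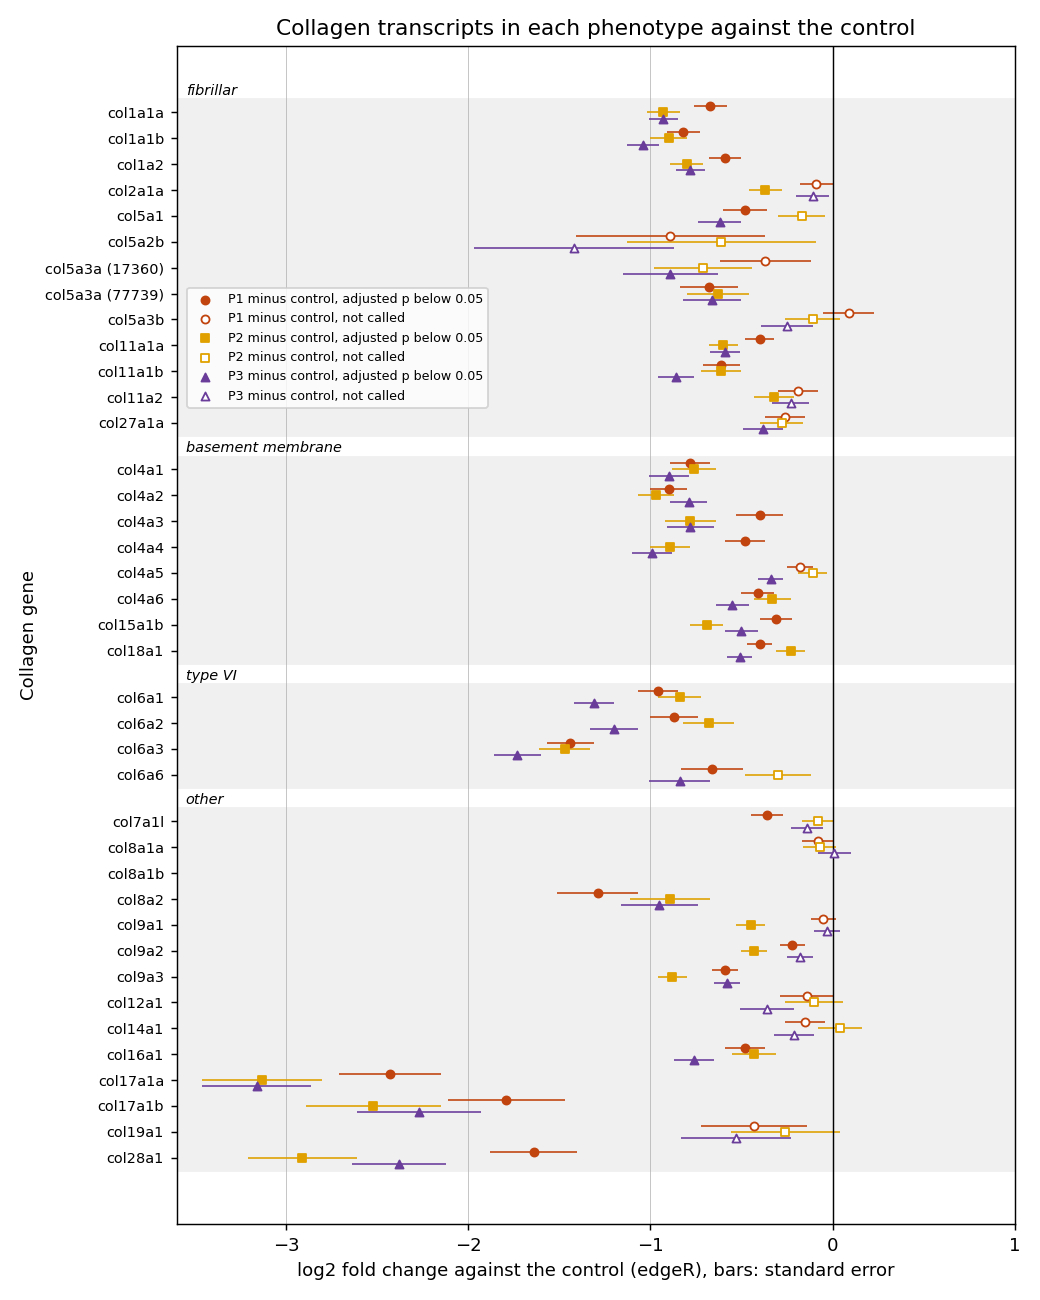
Log2 fold change of the 38 tested collagen genes against the control, with P1 above P2 above P3 for each gene; bars are standard errors, filled points are called and open points are not. All filled points lie left of 0, and the farthest belong to col17a1a, col17a1b and col28a1; the medians over the 38 genes are -0.48, -0.61 and -0.71 in P1, P2 and P3.

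Among the fibrillar collagens all 3 type I genes and both col11a1 genes were lower in every phenotype. Of 13 fibrillar genes 7 were lower in P1, 8 in P2 and 9 in P3, with median log2 fold changes of -0.48, -0.61 and -0.66. The gene col1a1a, on Zv9 chromosome 3 from 23512288 to 23530699, codes for the alpha 1 chain of type I collagen. It had 940, 846 and 853 CPM in P1, 733 and 740 CPM in P2, 665, 761 and 787 CPM in P3 and 1402 CPM in the control. All 8 phenotype libraries were far below the control, P1 being the least reduced. Its log2 fold change was -0.67 ± 0.09 (SE) in P1, -0.93 ± 0.09 in P2 and -0.93 ± 0.08 in P3, with edgeR adjusted p of 3.59e-05, 7.5e-07 and 3.67e-07.

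The duplicate gene col1a1b, on chromosome 12 from 3687446 to 3725230, had 409, 376 and 376 CPM in P1, 364 and 366 CPM in P2, 292, 339 and 365 CPM in P3 and 682 CPM in the control. Every phenotype library was again below the control, and its log2 fold change was -0.82 ± 0.09 in P1, -0.90 ± 0.10 in P2 and -1.04 ± 0.09 in P3. The gene col1a2, for the alpha 2 chain that joins the alpha 1 chains in type I collagen, lies on chromosome 19 from 41943847 to 41963606. It had 549, 499 and 502 CPM in P1, 444 and 449 CPM in P2, 406, 473 and 479 CPM in P3 and 777 CPM in the control. Its log2 fold change was -0.59 ± 0.09 in P1, -0.80 ± 0.09 in P2 and -0.78 ± 0.08 in P3, with edgeR adjusted p of 0.000165, 4.69e-06 and 3.52e-06. The labels do not say how reads that match both col1a1a and col1a1b were counted, so the split between these duplicates is uncertain.

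The minor fibrillar collagens, which sit inside type I and type II fibrils and set their width, were less uniform. For type XI, found with type II in cartilage and notochord, col11a1a changed by -0.40 ± 0.08 in P1, -0.60 ± 0.08 in P2 and -0.59 ± 0.08 in P3. Its duplicate col11a1b changed by -0.61 ± 0.10, -0.61 ± 0.11 and -0.86 ± 0.10 in the same order. Their partner col11a2 passed the test in P2, at -0.32 ± 0.11 (edgeR adjusted p = 0.0355), a call that was lost without either P2 library (adjusted p = 0.108 without replicate 0 and 0.0987 without replicate 1). In P3 it changed by -0.23 ± 0.10, which did not pass, and passed without P3 replicate 2 (adjusted p = 0.0437) and with no filter (adjusted p = 0.0381). For type V, found with type I, col5a1 had 309, 257 and 247 CPM in P1, 338 and 336 CPM in P2, 209, 264 and 267 CPM in P3 and 379 CPM in the control. It was lower in P1 (-0.48 ± 0.12, edgeR adjusted p = 0.0105) and P3 (-0.62 ± 0.12, adjusted p = 0.00107), while its change of -0.17 ± 0.13 in P2 did not pass (adjusted p = 0.354) but did with only P2 and the control fitted (adjusted p = 0.00246). The fit of only P2 and the control took its spread from the P2 libraries alone. It called more genes in P2 than the fit of all libraries, so its calls, here and below, are given with that limit. In P1 the col5a1 call was not made by DESeq2 (adjusted p = 0.0767).

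The genes named col5a3a are weakly expressed neighbours on opposite strands of chromosome 3. The gene on the minus strand, from 54468571 to 54614778 (ENSDARG00000077739), had 7.2, 8.8 and 9.2 CPM in P1, 9.25 and 8.09 CPM in P2, 7.98, 9.21 and 8.4 CPM in P3 and 13.4 CPM in the control. In all phenotypes it was lower, at -0.68 ± 0.16, -0.63 ± 0.17 and -0.66 ± 0.16 in P1, P2 and P3, and the call in P2 was lost without P2 replicate 1 (edgeR adjusted p = 0.065). The gene on the plus strand, from 54697355 to 54769855 (ENSDARG00000017360), had 6.68, 5.28 and 3.77 CPM in P1, 4.57 and 3.8 CPM in P2, 3.8, 3.43 and 3.83 CPM in P3 and 6.84 CPM in the control. It was lower in P3 at -0.89 ± 0.26 (edgeR adjusted p = 0.0189). It did not pass in P1, nor in P2 (-0.71 ± 0.27, adjusted p = 0.0527), where it passed without P1 replicate 0, P1 replicate 2 or P3 replicate 0 (adjusted p = 0.0288, 0.0267 and 0.0296), with no filter (adjusted p = 0.0165) and with only P2 and the control fitted (adjusted p = 0.00253). The gene col5a3b was near the control, at 0.09 ± 0.14 in P1, -0.11 ± 0.15 in P2 and -0.25 ± 0.14 in P3, none of which passed, although P3 did with no filter (adjusted p = 0.0433).

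The type II gene col2a1a stood close to the control in P1 and P3. This gene, on chromosome 8 from 21733438 to 21757491, had 1368, 1210 and 1255 CPM in P1, 1043 and 1064 CPM in P2, 1147, 1274 and 1359 CPM in P3 and 1359 CPM in the control. The P1 libraries lay on both sides of the control, and the P2 libraries were the lowest. It was lower in P2, at -0.37 ± 0.09 (edgeR adjusted p = 0.00631), and did not pass in P1 (-0.09 ± 0.09) or P3 (-0.11 ± 0.09). Of the remaining fibrillar genes, col27a1a was lower in P3, at -0.38 ± 0.11 (edgeR adjusted p = 0.0227), which was lost without P3 replicate 2 (adjusted p = 0.0609) and with DESeq2 (adjusted p = 0.0556), and it passed in P2 with only P2 and the control fitted (adjusted p = 0.0084). The gene col5a2b had 5 to 10 counts in each library and passed in no phenotype. The far more abundant type V gene COL5A2 (1 of 2), outside the naming rule, was lower in every phenotype and is given at the end.

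Basement membrane collagens were lower almost throughout. Of 8 genes 7 were lower in P1, 7 in P2 and 8 in P3, with median log2 fold changes of -0.41, -0.72 and -0.66. The genes col4a1 and col4a2 code for the chains of the type IV collagen that most basement membranes contain, and lie head to head on chromosome 9, at 8676056 to 8715240 on the minus strand and 8773012 to 8941992 on the plus strand. Transcripts of col4a1 had 21.2, 21.1 and 19.8 CPM in P1, 22.9 and 19.2 CPM in P2, 19.7, 19.4 and 18.1 CPM in P3 and 35.5 CPM in the control. Transcripts of col4a2 had 26, 24.4 and 24.3 CPM in P1, 24.5 and 23.1 CPM in P2, 25.2, 28.5 and 26.6 CPM in P3 and 46.5 CPM in the control. In both genes all 8 phenotype libraries lay far under the control. The log2 fold changes of col4a1 were -0.78 ± 0.11 in P1, -0.76 ± 0.12 in P2 and -0.90 ± 0.11 in P3, and those of col4a2 -0.90 ± 0.10, -0.97 ± 0.10 and -0.79 ± 0.10.

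The next type IV pair, col4a3 and col4a4, lies head to head on chromosome 15 with 1740 bases between the genes. In mammals these chains assemble with alpha 5 in the membrane of the kidney filter. Transcripts of col4a4 had 22.2, 20.2 and 20.6 CPM in P1, 15.3 and 16.2 CPM in P2, 14.1, 15.5 and 14.5 CPM in P3 and 29.3 CPM in the control. Transcripts of col4a3 had 22.2, 19 and 19.9 CPM in P1, 15.7 and 15.7 CPM in P2, 13.3, 16.5 and 17.1 CPM in P3 and 26.9 CPM in the control. In both, P1 lay between the control and the other phenotypes. The log2 fold changes of col4a4 were -0.48 ± 0.11 in P1, -0.89 ± 0.11 in P2 and -0.99 ± 0.11 in P3, with edgeR adjusted p of 0.00513, 1.55e-05 and 3.38e-06. Those of col4a3 were -0.40 ± 0.13, -0.78 ± 0.14 and -0.78 ± 0.13, and the call in P1 had an edgeR adjusted p of 0.0436. That call was lost without any 1 of 4 libraries, with adjusted p of 0.0971 without P1 replicate 1, 0.0954 without P1 replicate 2, 0.0595 without P2 replicate 0 and 0.0594 without P2 replicate 1, and it was lost with DESeq2 (adjusted p = 0.113).

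The last type IV pair held the most abundant type IV transcripts. The genes col4a5 and col4a6 lie head to head on chromosome 7, with 1093 bases between them. Transcripts of col4a5 had 396, 370 and 364 CPM in P1, 397 and 396 CPM in P2, 318, 349 and 343 CPM in P3 and 427 CPM in the control. It was lower in P3 (-0.34 ± 0.07, edgeR adjusted p = 0.00292), while P1 (-0.18 ± 0.07) and P2 (-0.11 ± 0.08) did not pass. Its partner col4a6 was lower in all, at -0.41 ± 0.09 in P1, -0.33 ± 0.10 in P2 and -0.55 ± 0.09 in P3, although the call in P2 was lost without P2 replicate 1 (edgeR adjusted p = 0.0963).

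Types XV and XVIII, basement membrane proteins that carry sugar chains, differed in which phenotype was lowest. Transcripts of col15a1b, on chromosome 2, had 52.5, 51.1 and 48.8 CPM in P1, 39.1 and 39 CPM in P2, 47.6, 43.8 and 42.1 CPM in P3 and 62.9 CPM in the control. The groups did not overlap, with P2 lowest. Its log2 fold changes were -0.31 ± 0.09 in P1, -0.69 ± 0.09 in P2 and -0.50 ± 0.09 in P3, and the call in P1 (edgeR adjusted p = 0.0224) was lost without P1 replicate 2 (adjusted p = 0.0663) and with DESeq2 (adjusted p = 0.0585). Transcripts of col18a1, on chromosome 9, had 330, 324 and 316 CPM in P1, 358 and 370 CPM in P2, 283, 307 and 311 CPM in P3 and 428 CPM in the control. Here P2 was the nearest to the control and P3 the farthest. The log2 fold changes were -0.40 ± 0.07, -0.23 ± 0.08 and -0.51 ± 0.07, and the call in P2 (edgeR adjusted p = 0.0309) was lost without either P2 library (adjusted p = 0.123 without replicate 0 and 0.0594 without replicate 1).

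Type VI collagens had the lowest median of the 4 classes. All 4 genes were lower in P1, 3 in P2 and 4 in P3, with median log2 fold changes of -0.92, -0.76 and -1.25. The chains of col6a1, col6a2 and col6a3 form the classical type VI molecule. The largest change was in col6a3, on chromosome 9 from 24947662 to 25027570, with 12.4, 10.7 and 10.2 CPM in P1, 11.9 and 9.99 CPM in P2, 8.79, 8.83 and 9.73 CPM in P3 and 30.3 CPM in the control. No phenotype library came near the control, with 139 to 213 counts in the deeper phenotype libraries against 363 in the control. It was 2.72-fold lower in P1, 2.78-fold lower in P2 and 3.31-fold lower in P3, with log2 fold changes of -1.44 ± 0.13, -1.47 ± 0.14 and -1.73 ± 0.13 and edgeR adjusted p of 7.89e-07, 4.4e-07 and 4.71e-08.

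Of the neighbours on chromosome 11, col6a1 had 31.1, 26.9 and 26.5 CPM in P1, 30.3 and 31 CPM in P2, 19.1, 23.6 and 23.4 CPM in P3 and 54.9 CPM in the control. Its neighbour col6a2 had 32.5, 26.1 and 25.2 CPM in P1, 32.9 and 31.2 CPM in P2, 19.3, 23.3 and 24.4 CPM in P3 and 51.3 CPM in the control. In each gene P3 was the lowest and overlapped neither of the other phenotypes. The log2 fold changes of col6a1 were -0.96 ± 0.11, -0.84 ± 0.12 and -1.31 ± 0.11 in P1, P2 and P3, and those of col6a2 -0.87 ± 0.13, -0.68 ± 0.14 and -1.20 ± 0.13. The gene labelled col6a6, which the reference table of gene names gives as col6a4a, had 41.9, 30.3 and 28.9 CPM in P1, 42 and 44.8 CPM in P2, 24.1, 33.4 and 31.8 CPM in P3 and 53.5 CPM in the control. This gene was lower in P1 (-0.66 ± 0.17, edgeR adjusted p = 0.0122) and P3 (-0.84 ± 0.17, adjusted p = 0.00145) and did not pass in P2 (-0.30 ± 0.18, adjusted p = 0.215), although it did with only P2 and the control fitted (adjusted p = 0.000703). Its P1 call was not made by DESeq2 (adjusted p = 0.105).

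The farthest falls of all collagens were among the other types, where 8 of 13 tested genes were lower in P1, 8 in P2 and 6 in P3. The 2 transmembrane genes, col17a1a and col17a1b, code for type XVII collagen, which anchors basal keratinocytes to the basement membrane in hemidesmosomes. Transcripts of col17a1a, on chromosome 1 from 50074734 to 50112253, had 1.74, 1.96 and 1.19 CPM in P1, 0.791 and 1.19 CPM in P2, 1.12, 1.33 and 0.59 CPM in P3 and 8.84 CPM in the control. In counts these were 12 to 30 in a phenotype library and 106 in the control. It was 5.39-fold lower in P1, 8.76-fold lower in P2 and 8.93-fold lower in P3, with log2 fold changes of -2.43 ± 0.28, -3.13 ± 0.33 and -3.16 ± 0.30 and edgeR adjusted p of 1.6e-05, 1.66e-06 and 6.89e-07.

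The duplicate col17a1b, with 9 to 18 counts in a phenotype library and 38 in the control, changed by -1.79 ± 0.32 in P1, -2.52 ± 0.37 in P2 and -2.27 ± 0.34 in P3, all of which passed. A different keratinocyte gene, krt4, the most abundant keratin of the epidermis list, averaged 10631 ± 397 CPM in P1 (SD, n = 3), 9847 ± 222 CPM in P2 (n = 2), 10821 ± 273 CPM in P3 (n = 3) and 15347 CPM in the control. Its log2 fold changes were -0.53 ± 0.07, -0.64 ± 0.07 and -0.50 ± 0.07. Over all 10 epidermis markers the medians were -0.39, -0.43 and -0.31, with 7, 6 and 6 lower and 1 higher in P3. These markers were not split by skin layer, and the part of basal keratinocytes in the col17a1a and col17a1b results was not tested.

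The gene col28a1, for a collagen that in the mouse is known from peripheral nerves, had 2.03, 2.3 and 1.92 CPM in P1, 0.791 and 0.923 CPM in P2, 0.997, 1.59 and 1.18 CPM in P3 and 6.51 CPM in the control. The counts were 29 to 35 in P1, 13 and 17 in P2, 16 to 25 in P3 and 78 in the control. It was 3.12-fold lower in P1, 7.51-fold lower in P2 and 5.19-fold lower in P3, with log2 fold changes of -1.64 ± 0.24, -2.91 ± 0.30 and -2.38 ± 0.26. Markers of neural crest and pigment cells, the crest giving rise to Schwann cells, summed to 324 to 358 CPM in P1, 205 to 209 in P2, 274 to 341 in P3 and 621 in the control, with 4, 5 and 4 of 7 lower and 1 higher in each phenotype. Their part in the col28a1 result was not tested.

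Among the network-forming genes, col8a2 had 4.82, 4.94 and 4.24 CPM in P1, 6.7 and 5.7 CPM in P2, 7.73, 4.89 and 5.21 CPM in P3 and 11.4 CPM in the control. Lower values were called in all phenotypes, at -1.29 ± 0.22, -0.89 ± 0.22 and -0.95 ± 0.21, and the call in P2 was lost without P2 replicate 1 (edgeR adjusted p = 0.0502). Its relative col8a1a, far more abundant, did not pass in any phenotype, at -0.08 ± 0.09, -0.07 ± 0.09 and 0.01 ± 0.09. The anchoring fibril gene col7a1l was lower in P1, at -0.36 ± 0.09 (edgeR adjusted p = 0.00968), and did not pass in P2 (-0.08 ± 0.09) or P3 (-0.14 ± 0.09).

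The fibril-associated collagens changed unevenly, with 3 of 7 lower in P1, 4 in P2 and 2 in P3. Besides col12a1, type XII has COL12A1, outside the naming rule, which was lower in P1 and P3 and is given at the end. In the control COL12A1 stood above col12a1 in CPM (149 against 22.7) but below it in FPKM (12.7 against 21.3). Type IX collagen is built of 3 chains and coats type II fibrils. The gene for the alpha 1 chain, col9a1, on chromosome 13 from 39679469 to 39719819, had 640, 668 and 680 CPM in P1, 488 and 511 CPM in P2, 667, 643 and 694 CPM in P3 and 684 CPM in the control. Its P2 libraries lay below all the rest, and 1 P3 library lay above the control. The change passed in P2, at -0.45 ± 0.08 (edgeR adjusted p = 0.000225), and did not pass in P1 (-0.05 ± 0.07) or P3 (-0.03 ± 0.07).

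The gene for the alpha 3 chain, col9a3, on chromosome 23, behaved otherwise. It had 155, 169 and 158 CPM in P1, 129 and 134 CPM in P2, 165, 160 and 160 CPM in P3 and 241 CPM in the control. All 8 phenotype libraries were below the control, with P2 lowest. Its log2 fold changes were -0.59 ± 0.07 in P1, -0.88 ± 0.08 in P2 and -0.58 ± 0.07 in P3, with edgeR adjusted p of 2.67e-05, 1.95e-07 and 1.41e-05. The alpha 2 gene col9a2 lay between, at -0.22 ± 0.07, -0.43 ± 0.07 and -0.18 ± 0.07. Of these the P1 call (edgeR adjusted p = 0.0393) was lost without P1 replicate 2 (adjusted p = 0.103) and with no filter (adjusted p = 0.0529), and P3 did not pass (adjusted p = 0.0644) but did without P3 replicate 2 (adjusted p = 0.0453) and with RLE size factors or library totals (adjusted p = 0.0473 and 0.0456) and with a filter of 1 CPM (adjusted p = 0.0487). In the remaining fibril-associated genes, col16a1 was lower in all phenotypes at -0.48 ± 0.11, -0.43 ± 0.12 and -0.76 ± 0.11, with the P2 call lost without P2 replicate 1 (edgeR adjusted p = 0.0561), and col12a1, col14a1 and col19a1 passed in none, although col12a1 passed in P3 without P3 replicate 1 (adjusted p = 0.0219) and with no filter (adjusted p = 0.0411).

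Chains that are assembled into 1 molecule can be set against each other within a library, where the ratio of FPKM does not depend on the size of that library. For col9a3 over col9a2 the ratio was 0.563, 0.61 and 0.592 in P1, 0.55 and 0.563 in P2, 0.6, 0.585 and 0.552 in P3 and 0.761 in the control. For col9a3 over col9a1 it was 0.209 to 0.228 in P1, 0.236 and 0.237 in P2, 0.207 to 0.224 in P3 and 0.318 in the control. The alpha 3 transcript was thus scarcer beside these partner transcripts in all 8 phenotype libraries. Since the reference name of col9a1 is col9a1b, any other alpha 1 gene is not part of the ratio. The ratio of col6a3 to col6a1 was likewise 0.09 to 0.0933 in P1, 0.0755 and 0.0919 in P2, 0.0875 to 0.108 in P3 and 0.129 in the control.

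Among partners in types I and IV some ratios also lay to 1 side of the control in all 8 phenotype libraries. For col1a1a over col1a2 it was 1.62 to 1.63 in P1, 1.58 in both P2 libraries, 1.54 to 1.57 in P3 and 1.72 in the control, and for col1a1b over col1a2 it was 0.764 to 0.774 in P1, 0.841 and 0.835 in P2, 0.734 to 0.78 in P3 and 0.899 in the control. For col4a5 over col4a6 it was 1.75 to 1.9 in P1, 1.75 and 1.85 in P2, 1.67 to 1.92 in P3 and 1.54 in the control. For col4a3 over col4a4 it was 0.959 to 1.02 in P1, 0.997 and 1.05 in P2, 0.966 to 1.2 in P3 and 0.943 in the control, and for col4a1 over col4a2 the control, at 0.986, lay within the range of the P3 libraries. The ratio of col11a1b to col11a2, partners in type XI, was 0.496 to 0.511 in P1, 0.552 and 0.558 in P2, 0.417 to 0.45 in P3 and 0.674 in the control, with no overlap of the groups. That of col2a1a to col11a1a was 2.4 to 2.5 in P1, 2.33 in both P2 libraries, 2.65 to 2.95 in P3 and 1.98 in the control. The control also lay to 1 side for col6a1 over col6a2, col11a1a over col11a2, col17a1a over col17a1b and col5a1 over col1a1a. For col9a1 over col9a2 and col1a1a over col1a1b the control, at 2.39 and 1.92, lay within the range of the phenotype libraries. How often pairs of other genes lie to 1 side of the control was not counted. These ratios are given without a test, since the control has 1 library.

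**Figure D3:**
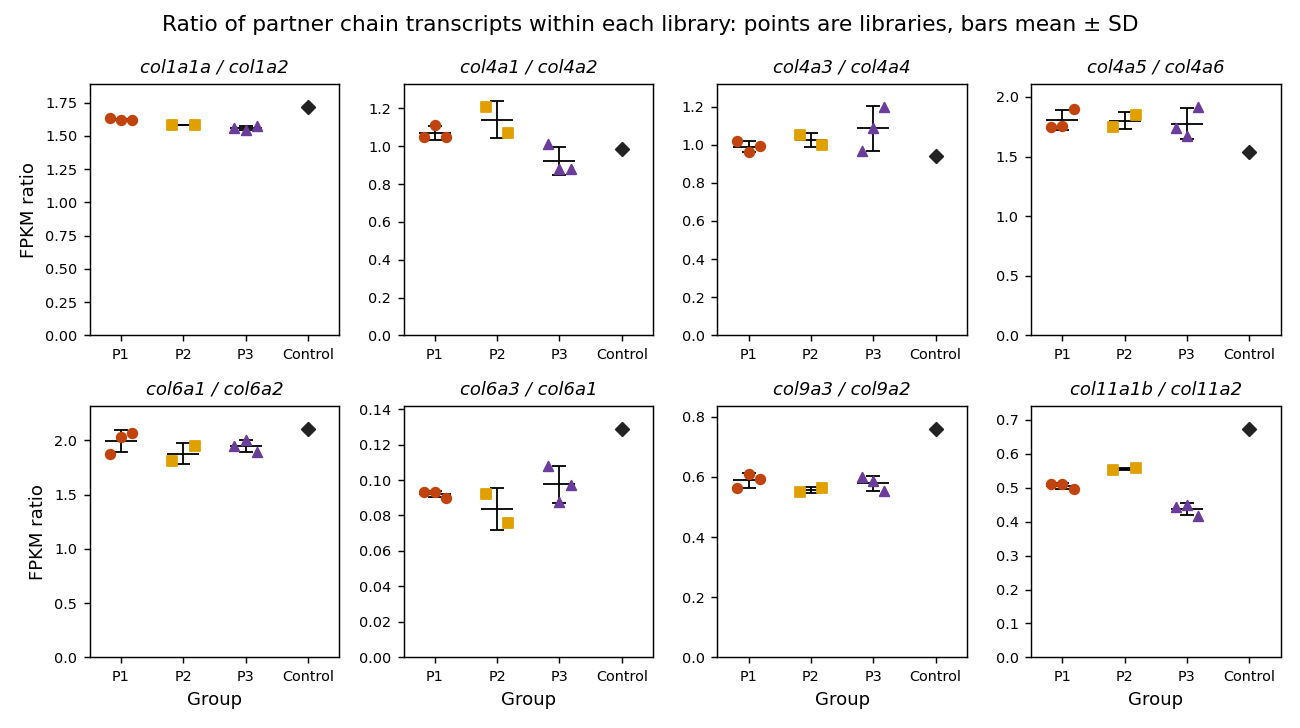
FPKM ratio of chains that are partners or neighbours, 1 panel per pair on an axis from 0, with 1 point per library and bars for mean ± SD of P1 (n = 3), P2 (n = 2) and P3 (n = 3), and the single control library at the right. The control point stands above all 8 phenotype libraries for col9a3 over col9a2 (0.761), col6a3 over col6a1 (0.129) and col11a1b over col11a2 (0.674), and below them for col4a5 over col4a6 (1.54).

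The phenotypes also differed from each other, in comparisons that do not use the control. A joint edgeR test over P1, P2 and P3 called 22 of 38 collagen genes (57.9%), where 28.8% of all tested genes were called. In P1 against P2, 11 collagen genes were higher and 3 lower (36.8% called, against 20.5% of all genes, 10.6% higher and 9.91% lower). In P3 against P1, 1 was higher and 11 lower (31.6%, against 10.4%, 6.01% higher and 4.42% lower), and in P3 against P2, 4 were higher and 10 lower (36.8%, against 21.5%, 11% higher and 10.5% lower). Most of these differences were small, and most of the calls were lost without some single library. Leaving out a P2 library leaves P2 with 1 library, and calls over all tested genes fell then too. In P3 against P1, calls over all tested genes went from 2069 to 1301 without P1 replicate 0, and were 2156 without P3 replicate 0. The losses in the collagen counts that follow are thus not those of collagen genes alone. The P1 against P2 count was 2 without P2 replicate 0 and 5 without P2 replicate 1, and the P3 against P2 count was 7 and 6 without the same libraries. The P3 against P1 count was 2 without P1 replicate 0, 5 without P1 replicate 1, 4 without P2 replicate 0, 4 without P2 replicate 1 and 6 without P3 replicate 0, and the joint count was 10 without P2 replicate 0 and 11 without P2 replicate 1. The calls made in every fit with 1 library left out were 2 of 14 for P1 against P2, 1 of 12 for P3 against P1, 5 of 14 for P3 against P2 and 6 of 22 for the joint test.

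In the pairwise comparisons those calls concern types IX and XV, with P2 the lowest, types V and VI, with P3 the lowest on average, and col4a4; in the joint test they are col4a4, col15a1b, col6a1, col6a2, col9a1 and col28a1. The gene col9a1 was higher in P1 than in P2 by 0.41 ± 0.06 on the log2 scale (edgeR adjusted p = 8.63e-05) and higher in P3 than in P2 by 0.42 ± 0.06 (adjusted p = 5.85e-05), with no overlap of the libraries given above. Likewise col9a3 was higher in P3 than in P2 by 0.30 ± 0.06 (adjusted p = 0.00145), and col15a1b higher in P1 than in P2 by 0.38 ± 0.07 (adjusted p = 0.000982). Summed notochord markers were at 276 to 295 CPM in P1, 308 to 326 in P2 and 290 to 299 in P3. The part of the notochord in these differences was not tested. The difference of col2a1a, higher in P1 than in P2 by 0.28 ± 0.07 and in P3 than in P2 by 0.26 ± 0.07, was lost without P2 replicate 0 or P2 replicate 1 (edgeR adjusted p of up to 0.109 for P1 and 0.128 for P3), and for P3 also without P3 replicate 2.

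In P3 against P2, col5a1 changed by -0.45 ± 0.10 (edgeR adjusted p = 0.00265), col6a1 by -0.47 ± 0.09 (adjusted p = 0.00177) and col6a2 by -0.52 ± 0.11 (adjusted p = 0.00215). In P3 against P1, col4a4 changed by -0.52 ± 0.08 (edgeR adjusted p = 0.000308). The largest difference between phenotypes was that of col28a1, higher in P1 than in P2 by 1.27 ± 0.28 (edgeR adjusted p = 0.00367), at 29 to 35 counts in P1 against 13 and 17 in P2, and it was lost without P2 replicate 0 (adjusted p = 0.0553). For type I, col1a1a was higher in P1 than in P2 by 0.26 ± 0.07 and lower in P3 than in P1 (-0.25 ± 0.06), and its change of 0.00 ± 0.07 in P3 against P2 did not pass. The call against P2 was lost without P1 replicate 0, P2 replicate 0 or P2 replicate 1 (edgeR adjusted p = 0.0668, 0.132 and 0.102), and that of P3 against P1 without P1 replicate 0 (adjusted p = 0.0818).

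**Figure D4:**
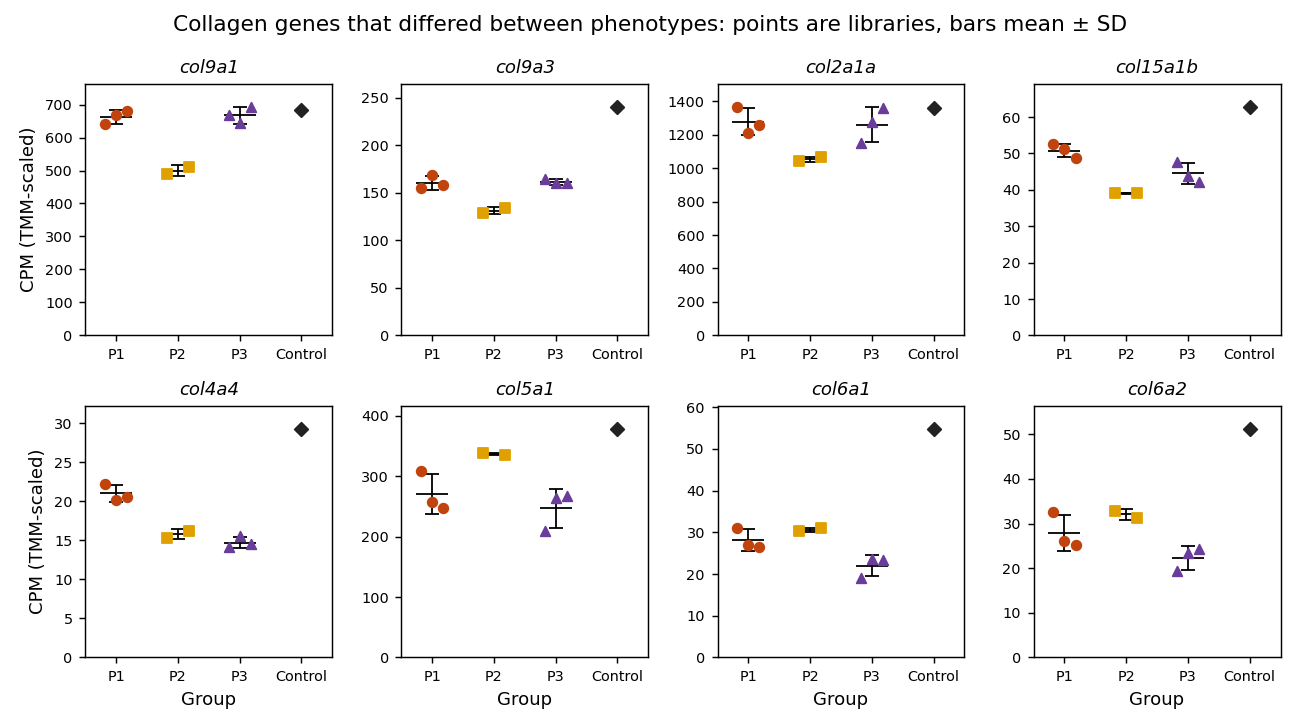
CPM of 8 collagen genes in P1, P2, P3 and control libraries, on axes from 0, with 1 point per library and bars for mean ± SD (n = 3, 2, 3 and a single control). P2 is lowest for col9a1, col9a3, col2a1a and col15a1b, P3 is lowest on average for col5a1, col6a1 and col6a2, and P1 lies above P2 and P3 for col4a4; for col9a1 and col2a1a the P1 and P3 libraries lie near the control.

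The enzymes and chaperones that build collagen in the endoplasmic reticulum were partly lower as well. The counts of this and the following gene lists stand beside 9.19%, 15.6% and 12.2% of all tested genes lower and 7.08%, 14.2% and 10.4% higher in P1, P2 and P3. Of 21 tested, 5 were lower in P1, 10 in P2 and 9 in P3 and none higher, with median log2 fold changes of -0.24, -0.26 and -0.23. The prolyl hydroxylase gene p4ha1b, whose enzyme makes the hydroxyproline that steadies the helix, averaged 60.9 ± 1.94 CPM in P1 (SD, n = 3), 80.1 ± 1.33 CPM in P2 (n = 2), 56.1 ± 2.18 CPM in P3 (n = 3) and 137 CPM in the control. Its log2 fold change was -1.17 ± 0.07 in P1, -0.78 ± 0.08 in P2 and -1.29 ± 0.07 in P3. Another prolyl hydroxylase, p4ha2, averaged 42.3 CPM in P1, 33.2 CPM in P2 and 66.3 CPM in the control and was lower in both. The lysyl hydroxylase plod1a changed by -0.48 ± 0.08 in P1 and -0.64 ± 0.08 in P3, and the chaperone fkbp10b by -0.60 ± 0.08 in P2 and -0.50 ± 0.07 in P3. For this and the following lists, values were drawn from the 4 genes with the smallest p in each comparison. A phenotype not given for a gene is therefore not shown to be unchanged.

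Export from the endoplasmic reticulum was mostly near the control. Of 17 tested genes 1 was lower in P1, 2 in P2 and 3 in P3, and 1 was higher in each, which is near the shares over all genes given above. The GTPase gene sar1a, which starts the COPII coat of export vesicles, averaged 27.6 ± 2.37 CPM in P1 (SD, n = 3), 22.4 ± 0.109 CPM in P2 (n = 2), 23.3 ± 1.75 CPM in P3 (n = 3) and 53.5 CPM in the control, with log2 fold changes of -0.95 ± 0.10, -1.26 ± 0.11 and -1.20 ± 0.10. Of 12 tested genes for propeptide cleavage and cross-linking, 3 were lower in P1, 4 in P2 and 5 in P3 and none higher. Among them the lysyl oxidase relative loxl5b changed by -0.56 ± 0.16, -0.76 ± 0.18 and -0.75 ± 0.17 in P1, P2 and P3.

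Most of the proteoglycans and glycoproteins that bind fibrils were lower. Of 16 tested, 11 were lower in P1, 10 in P2 and 11 in P3, and 1, 2 and 1 were higher, with median log2 fold changes of -0.42, -0.61 and -0.58. The gene fmodb codes for fibromodulin, a small proteoglycan that controls fibril assembly, and averaged 3.85 ± 0.351 CPM in P1 (SD, n = 3), 1.61 ± 0.0491 CPM in P2 (n = 2), 1.68 ± 0.936 CPM in P3 (n = 3) and 24.5 CPM in the control. Its log2 fold changes were -2.67 ± 0.23, -3.93 ± 0.28 and -3.86 ± 0.25. The gene sparc, for a collagen-binding protein also counted with the basement membrane list, averaged 511 ± 6.33 CPM in P1, 464 ± 15.6 CPM in P2, 497 ± 12.2 CPM in P3 and 754 CPM in the control, with log2 fold changes of -0.56 ± 0.07, -0.70 ± 0.07 and -0.60 ± 0.07.

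Genes for collagen receptors and for the other proteins of basement membranes were counted last. Of 10 receptor genes 3 were lower in P1, 3 in P2 and 4 in P3, and 1 was higher in P2. The integrin beta 1 gene itgb1b.1 changed by -0.38 ± 0.10, -0.84 ± 0.11 and -0.79 ± 0.10 in P1, P2 and P3, and the integrin alpha gene itga10 by 1.01 ± 0.27 in P2. Of 22 basement membrane partners 9 were lower in P1, 5 in P2 and 13 in P3, and 3 were higher in P2 and none in P1 or P3. In P2 these counts are near the shares over all genes, 15.6% lower and 14.2% higher. The Fraser complex gene frem2a, whose protein binds epidermis to the tissue below, changed by -1.07 ± 0.17 in P1 and -1.33 ± 0.17 in P3, and the laminin gene lamb1a by 0.55 ± 0.11 in P2.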

How the data were processed

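RNA of whole embryos was made into poly(A) libraries with the TruSeq RNA v2 kit, per the labels' protocols. Novoalign aligned the reads to Zv9, per the submitters' processing notes; how they were counted, whether by strand, and with which annotation release is not stated in the labels. The deposited tables give a raw count for each gene in each library, per the file headers, and FPKM made by the authors, equal to the count per kilobase of exon scaled to the library's total (largest relative gap 7.8e-08, tolerance 1e-06). The tables also hold the authors' score of a log-scaled adjusted p and their log2 ratio, per the file headers, which give the authors' calls. Coordinates are 1-based on Zv9.

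Counts of 32312 genes were filtered with filterByExpr (minimum count 10, minimum total 15), which left 19835, and scaled with TMM. Since the control group has 1 library, a gene could pass this filter through the control alone. All 9 libraries entered 1 quasi-likelihood model of edgeR 4.0.16 (R 4.3.3, limma 3.58.1) with group as its term, tested by two-sided F tests with Benjamini-Hochberg adjustment over all tested genes at 0.05. Residual degrees of freedom were 5. The SE is the log2 fold change divided by the square root of F. A number of 3 counts corresponds to 0.1442 CPM in the deepest library and 0.2498 CPM in the control, for counting error only. Other settings tried were library totals or RLE size factors in place of TMM, 1 CPM in at least 2 libraries as the filter or none at all, a fit of only the groups compared, a replicate block, leaving out each phenotype library in turn, and DESeq2 1.42.0. The procedure was tested on simulated counts. These gave the control the spread fitted over all groups, so they cannot check the spread of the single control library.

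Members and lists were chosen with earlier results of these data known. The genes given library by library in CPM are, per class, the 3 largest changes that pass with at least 5 CPM in the higher group in each comparison with the control, and the 3 smallest p of the joint test; from each pathway list up to 4 genes with the smallest p in each comparison could be named. Library values of col4a5 and col8a1a were added after they were seen.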

Additional observations from a re-analysis of the deposited data

Results flagged for a closer look

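Differences between the phenotypes, each tested on its own in the edgeR fit, passed the test for the following genes among those chosen by the rule above. Values are log2 fold changes. Outside that rule, col4a5 was lower in P3 against P2 (-0.24), and genes with upper-case symbols are not listed here. In P1 against P2, higher transcripts were found for col28a1 (1.27), col4a4 (0.42), col9a1 (0.41), col4a3 (0.38), col15a1b (0.38), col9a3 (0.29), col2a1a (0.28), col1a1a (0.26) and col1a2 (0.21), and lower ones for col5a1 (-0.31) and col18a1 (-0.17). In P3 against P1 lower transcripts were found for col28a1 (-0.73), col4a4 (-0.52), col4a3 (-0.38), col6a1 (-0.35), col6a2 (-0.32), col1a1a (-0.25) and col1a1b (-0.22). In P3 against P2, higher transcripts were found for col9a1 (0.42), col9a3 (0.30) and col2a1a (0.26), and lower ones for col6a6 (-0.54), col6a2 (-0.52), col6a1 (-0.47), col5a1 (-0.45) and col18a1 (-0.28).

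Of these, col9a1 and col15a1b in P1 against P2, col4a4 in P3 against P1, and col9a1, col9a3, col5a1, col6a1 and col6a2 in P3 against P2 passed in all 8 fits that leave out 1 phenotype library. A single library ended the calls of col4a4, col28a1 and col9a3 in P1 against P2 (P2 replicate 0, edgeR adjusted p = 0.0531, 0.0553 and 0.0541), of col1a1a, col4a3 and col6a1 in P3 against P1 (P1 replicate 0, adjusted p = 0.0818, 0.0939 and 0.0954), and of col18a1 and col6a6 in P3 against P2 (P2 replicate 1, adjusted p = 0.0529 and 0.0983). Leaving out any 1 of several libraries ended the rest. In P1 against P2 the adjusted p then reached 0.132 for col1a1a, 0.223 for col1a2, 0.153 for col5a1 and 0.109 for col2a1a without P2 replicate 0. It reached 0.123 for col4a3 without P2 replicate 0 and 0.269 for col18a1 without P2 replicate 1. In P3 against P1 it reached 0.177 for col1a1b and 0.266 for col6a2 without P1 replicate 0 and 0.145 for col28a1 without P1 replicate 1, and in P3 against P2 0.128 for col2a1a without P2 replicate 0. DESeq2 did not call col1a2, col5a1, col4a3 and col18a1 in P1 against P2, col6a2 and col28a1 in P3 against P1, or col6a6 in P3 against P2. The replicate block lost col1a2, col5a1, col4a3 and col18a1 in P1 against P2. It also lost col1a1b, col6a2 and col28a1 in P3 against P1, and col2a1a in P3 against P2. With only the groups compared, col1a1b, col6a2 and col28a1 were lost in P3 against P1. There col6a2 was also lost with the filter of 1 CPM, and col28a1 with library totals.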

How the results depend on the processing

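The counts of lower collagen genes against the control stayed within 1.5 times of those given under every alternative run on the 39 genes: 21 to 26 in P1, 20 to 30 in P2 and 26 to 30 in P3, with none higher. With 1 library left out they were 23 to 26, 20 to 27 and 27 to 28. Between phenotypes the ranges with 1 library left out were 2 to 18 for P1 against P2, 2 to 10 for P3 against P1, 6 to 15 for P3 against P2 and 10 to 23 for the joint test. P3 against P1 also gave 4 calls in place of 12 with the replicate block and 4 with only these groups fitted, and the joint test has no value with only 2 groups; the cause was not tested. Among the genes given library by library, the sign against the control changed for col8a1a in P3 (-0.07 to 0.05 over the alternatives, never called). With the replicate block the plus-strand col5a3a passed in P2 (edgeR adjusted p = 0.0326). The same block lost the calls of col4a3 and col9a2 in P1 and of col11a2 and col18a1 in P2. Scaling by RLE factors or library totals moved no count by over 1.5 times. Deviations from the group means of same-numbered libraries correlated at -0.285 to 0.0796 over 7 pairs. Those of differently numbered libraries correlated at -0.124 to 0.334 over 14 pairs. Within a group the deviations cancel out, so those of the P2 libraries mirror each other and the pairs are not separate values. With so few libraries per group these values cannot settle whether libraries share a batch, under the same or other numbers. With the replicate block 24, 25 and 27 genes were lower in P1, P2 and P3, and 10, 10 and 17 were called in P1 against P2, P3 against P2 and the joint test. With the upper-case collagen symbols, an alternative chosen after seeing the data, 35, 32 and 38 of 51 genes were called in P1, P2 and P3. Over all tested genes 16.3%, 29.8% and 22.6% were called.

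The control is 1 library of 12008832 counts, so a value particular to it cannot be told apart from an effect of exposure. Genes with few counts, such as col17a1b (38 counts in the control) and col5a2b (10), have wide errors, and col8a1b could not be tested.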

Other observations

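A further 13 genes carry upper-case collagen symbols, which the naming rule leaves out. All were tested with edgeR, and 8 were lower in P1, 6 in P2 and 10 in P3, with 1 higher in P1, 0 in P2 and 1 in P3 and median log2 fold changes of -0.61, -0.72 and -0.66. Over all tested genes 9.19%, 15.6% and 12.2% were lower and 7.08%, 14.2% and 10.4% higher in P1, P2 and P3. The 1 higher gene in P1 and in P3 is near these shares of higher genes. COL22A1, a fibril-associated collagen known in zebrafish from the muscle attachment to tendon, had 22.7, 16.9 and 16.8 CPM in P1, 11.7 and 13.6 CPM in P2, 7.98, 14.9 and 15.1 CPM in P3 and 48.1 CPM in the control. Its log2 fold changes were -1.35 ± 0.20, -1.92 ± 0.22 and -1.91 ± 0.21, beside the lower summed markers of skeletal muscle given above, whose part in it was not tested.

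The second type II gene, COL2A1 (2 of 2), had 246, 228 and 222 CPM in P1, 178 and 190 CPM in P2, 188, 212 and 221 CPM in P3 and 314 CPM in the control. Unlike col2a1a it passed in every phenotype, at -0.44 ± 0.09, -0.77 ± 0.09 and -0.60 ± 0.09; whether the genes differ in their change was not tested. COL12A1, a fibril-associated collagen, had 104, 83.8 and 80.4 CPM in P1, 133 and 142 CPM in P2, 64.6, 89.6 and 72 CPM in P3 and 149 CPM in the control. It was lower in P1 (-0.74 ± 0.14, edgeR adjusted p = 0.00129) and P3 (-0.98 ± 0.14, adjusted p = 4.34e-05) and did not pass in P2 (-0.12 ± 0.15). In P3 against P2 it changed by -0.86 ± 0.11 (edgeR adjusted p = 2.37e-05). COL5A2 (1 of 2) averaged 228 CPM in P1, 222 CPM in P2 and 195 CPM in P3, against 349 CPM in the control. It was lower in every phenotype, at -0.61 ± 0.07, -0.65 ± 0.07 and -0.84 ± 0.07. COL14A1 (2 of 2) was the exception in direction among the called genes, higher in P1 at 0.50 ± 0.16 (edgeR adjusted p = 0.0414) and in P3 at 0.46 ± 0.16 (adjusted p = 0.0444), with 19.5 to 25.1 CPM in P1 and P3, 22.4 and 21.6 CPM in P2, where it did not pass, and 16.2 CPM in the control. The gene labelled COL4A6 is named col7a1 in the reference table of gene names, and was lower in P1 (-0.61 ± 0.10) and P3 (-0.45 ± 0.10). These genes were chosen after their values were seen.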
